A study of Homo sapiens with 6 samples.

Results

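The chaperonins are barrel-shaped protein-folding machines, and 10 genes encode the human proteins described here. TCP1, CCT2, CCT3, CCT4, CCT5, CCT6A, CCT7 and CCT8 encode the 8 subunits of the cytosolic ring complex known as CCT or TRiC, and HSPD1 and HSPE1 encode the mitochondrial chaperonin HSP60 and its lid, HSP10. The members were taken by exact gene symbol, and all 10 were found among the 43424 symbols of the count tables. All 10 also passed the filter on low counts, which left 13198 genes to be tested.

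CCT is built from a pair of stacked rings in which every subunit has its own fixed place, so that the complex needs all of its subunits. It folds actin, tubulin and many proteins with propeller-like domains, often after the co-chaperone prefoldin has handed them over. HSP60 forms rings of a single kind of subunit in the mitochondrial matrix and folds imported proteins under the HSP10 lid. HSP60 is widely used as a marker of mitochondrial protein stress.

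RNA came from HepG2, an established line of human liver cancer cells, so that the data describe 1 line in culture. There were 3 control libraries from cells labelled wild type with no treatment and 3 libraries from cells of the same line and genotype given 10 µM tamarixetin, an O-methylated relative of the flavonol quercetin, for 24 h. The treatment medium held 1% serum and the growth medium 10%; for the controls, neither a vehicle nor the serum content is stated. The labels call the samples biological replicates without saying how the cultures were separated, so the p-values measure the spread between these samples.

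Libraries held 11980585 to 16168855 counts. All 8 hepatocyte marker genes listed (ALB, AFP, APOA1, APOB, TF, TTR, SERPINA1 and FGB) were expressed and all 8 fell, their summed level going from 15806 to 16401 CPM (counts scaled to a common library total) in control down to 9039 to 9301 CPM in tamarixetin libraries. Markers of fibroblasts and stellate cells summed to 39.9 to 45.1 CPM in control and 36.5 to 38.9 CPM with tamarixetin, with 2 of 5 tested lower, or 1 without control replicate 2 or 3 or tamarixetin replicate 1 or 3. Endothelial markers summed to 0.878 to 1.42 and 1.01 to 1.90 CPM, with KDR and STAB2 at 0 counts in every library. Leukocyte markers, most of it the lysosomal gene CD68, summed to 13.5 to 15.8 and 13.5 to 16.4 CPM, with CD3E at 0 counts and CD14, at 2 to 33 counts, lower. The 15 mitochondrial genes listed made up 10.5% ± 0.388 of counts in control and 8.06% ± 0.275 with tamarixetin (SD, n = 3 each); 11 of them fell and none rose, with a median log2 fold change of -0.29. Over all genes tested, 22.4% were higher and 21.3% lower. The part of the marker and mitochondrial shifts in the results below was not tested.

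The gene pair HSPD1 and HSPE1 is shown first, because its members lie head to head on chromosome 2 and share a start region. HSPD1 runs on the minus strand from 197500274 down to 197486584 and HSPE1 on the plus strand from 197500379 to 197503449, which leaves 104 bases between them in the RefSeq annotation of GRCh38.p14. GENCODE 29 annotates further starts, with exons over these bases. The 30 bases at chr2:197500345-197500374 are printed on the plus strand, reading towards HSPE1, with the E-box CACGTG in capitals.
HSPD1-HSPE1: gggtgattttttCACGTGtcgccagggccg
The E-box begins at position -22 from the HSPE1 start and at -88 from the HSPD1 start, so it is the same site in both windows. Windows from 250 bases before to 50 after a start were available for 9 of the 10 members (12 windows). The exception was CCT6A. CACGTG stood in 7.26% of all 35116 such windows. The motifs searched were chosen after the member sequences had been seen, and both strands were read.

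Heat shock factors bind to inverted repeats of GAA and TTC. A pair of units, TTCNNGAA or GAANNTTC, stood in windows of HSPD1, CCT4, TCP1 and CCT2, and in 7.74% and 6.77% of all windows. They are shown here for comparison, 30 bases each on the strand of the gene, with the units in capitals.
HSPD1: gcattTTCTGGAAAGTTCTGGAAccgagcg
CCT4: cccgacgccggcgccgctTTCTGGAAggtt
TCP1: tgaggcGAAGGTTCaacctcttcccagcgg
CCT2: agcgaaGAAATTTCtagtgtgggacccgct
The HSPD1 site, at chr2:197500061-197500090, holds 4 alternating units in a row, a form found in 9 of the 35116 windows (0.0256%). Its units begin at position -245 from the second annotated start of HSPD1, and all 30 bases fall in a GENCODE 29 exon of the gene. The other 3 hold a single pair of units within their windows: CCT4 at chr2:61888607-61888636, just after its start, TCP1 at chr6:159789810-159789839 and CCT2 at chr12:69585794-69585823. The CCT4 piece ends at the edge of its window, so whether a further unit follows cannot be seen. The ETS-factor core CGGAAGT, read on either strand, stood in windows of TCP1, CCT2 and CCT7 and in 6.83% of all windows. The first such site of each is shown at chr6:159789780-159789809, chr12:69585432-69585461 and chr2:73234234-73234263.
TCP1: tccaacatccgACTTCCGttctccgctttc
CCT2: cgtgtggcgtcACTTCCGgcttccttcagt
CCT7: ccatagagtagCGGAAGTggtccgttctct
The core is in capitals and reads ACTTCCG where it lies on the other strand. TGATGNAA, a core of the C/EBP-ATF element, stood in none of the 12 member windows and in 3.62% of all. These matches describe letters and say nothing of binding in these cells.

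Most ring genes were modestly higher with tamarixetin, and HSPD1, the most abundant chaperonin transcript, had one of the smaller changes. Of the 8 ring genes 7 rose and none fell, by 1.08-fold (CCT7) to 1.27-fold (CCT4), and CCT3 did not pass the test. HSPE1 rose 1.14-fold and HSPD1 1.05-fold, the latter at an adjusted p close to the threshold. In all, 9 of 10 members were called, all higher, where 43.7% of all genes tested were called in either direction, 22.4% higher and 21.3% lower. The members' median log2 fold change was 0.25 in the ring and 0.13 in the pair, against 3.76e-04 over all genes tested. The 2954 genes called higher had a larger median log2 fold change, 0.41, but that median takes in only genes that passed. Of these genes 45.1% had a fold under 1.3, as every member did, so changes of this size were common. In bulk libraries, more RNA per cell and more cells with the RNA cannot be told apart.

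Gene positions below are those of RefSeq on GRCh38.p14. CCT4 (chr2:61868085-61888671, minus strand), the delta subunit, and TCP1 had the largest changes among the ring genes. The level of CCT4 was 240.0, 260.1 and 267 CPM in the control libraries and 318, 325 and 327 CPM in the tamarixetin libraries. All 3 tamarixetin libraries lay above all 3 controls, and the log2 change was 0.34 (SE 0.039, adjusted p = 1.96e-12). Every adjusted p here comes from the quasi-likelihood test of edgeR, adjusted after Benjamini and Hochberg over all genes tested. CCT4 shares 81 of its 2830 annotated exon bases with COMMD1 on the other strand, and COMMD1 fell by 0.28 on the log2 scale. The strand setting of the counting is not given in the sources used here, so reads from the shared bases cannot be told apart.

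TCP1 (chr6:159778498-159789602, minus strand), the alpha subunit that gave the complex its name, stood at 230.3, 244 and 249 CPM in control and 302, 305 and 302 CPM with tamarixetin. The groups were well apart and the tamarixetin libraries nearly level (log2 fold change 0.33, SE 0.039, adjusted p = 4.80e-12). TCP1 overlaps ACAT2, an enzyme gene of sterol synthesis on the other strand, over 397 of its 4929 exon bases. ACAT2 fell by 0.27 on the log2 scale, opposite in direction to TCP1. Reads from the bases shared with ACAT2 cannot be told apart either. Because the kit reads next to the poly(A) tail, the share of exon bases need not be the share of reads. How much of the TCP1 count comes from the shared bases was not tested.

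CCT6A (chr7:56051765-56063989, plus strand), the zeta subunit expressed outside the testis, was at 262, 269 and 269.9 CPM in control and 325, 323 and 321 CPM with tamarixetin. CCT2 (chr12:69585459-69601570, plus strand), the beta subunit, was at 228, 246 and 239 CPM and then at 290.2, 284 and 285 CPM. Neither gene had overlapping groups, and the log2 fold changes were alike, 0.27 (SE 0.038, adjusted p = 1.22e-09) and 0.27 (SE 0.039, adjusted p = 6.95e-09). CCT8 (chr21:29056326-29073648, minus strand), the theta subunit and the least abundant in every library, went from 187, 205 and 199 CPM to 224, 233 and 239.6 CPM. The lowest tamarixetin library lay above the highest control, and the log2 change was 0.24 (SE 0.042, adjusted p = 1.18e-06).

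The 3 most abundant ring transcripts had the smallest changes of the ring. CCT5 (chr5:10249921-10266412, plus strand), the epsilon subunit, stood at 314, 310.1 and 307 CPM in control and 341, 358 and 353 CPM with tamarixetin, without overlap (log2 fold change 0.17, SE 0.037, adjusted p = 5.66e-05). CCT7 (chr2:73234308-73253005, plus strand), the eta subunit, stood at 369, 381 and 389 CPM and then at 417, 410.3 and 399.8 CPM. Its groups were separated by a narrow gap (log2 fold change 0.11, SE 0.036, adjusted p = 0.0104), and the call was lost without control replicate 1 (adjusted p = 0.0695) or tamarixetin replicate 1 (adjusted p = 0.0590) and under upper quartile scaling (0.073, adjusted p = 0.0928).

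CCT3 (chr1:156308968-156338292, minus strand), the gamma subunit, had 389.6, 405 and 408 CPM in control and 435, 402 and 436 CPM with tamarixetin. Tamarixetin replicate 2 lay among the controls and the other 2 above them. Its log2 change, 0.083 (SE 0.037, adjusted p = 0.0567), did not pass. Its 95% interval, unadjusted, ran from 1.01-fold to 1.11-fold. Without tamarixetin replicate 2 it passed, at 0.12 (adjusted p = 0.0159), and it also passed when only library size was used for scaling and in limma-voom.

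**Figure D1:**
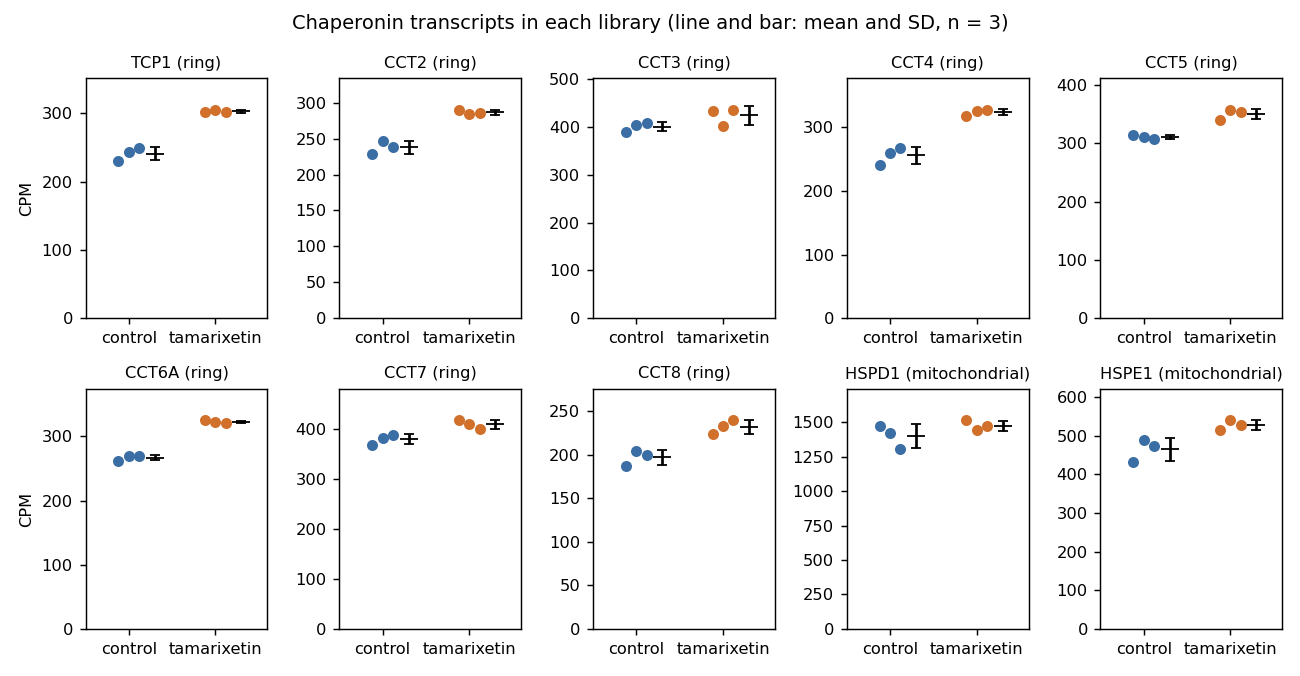
Level of each chaperonin transcript (vertical axis, CPM, from 0) in the 3 control and 3 tamarixetin libraries; points are libraries, and the line and bar beside them are the mean and SD. Every gene but CCT3 and HSPD1 has all tamarixetin libraries above all controls.

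HSPE1, the HSP10 lid, rose by about as much as CCT5. It was at 432, 489.8 and 473 CPM in control and at 516, 540.0 and 528 CPM with tamarixetin. The groups did not overlap, although control replicate 1 lay well under the other controls (log2 fold change 0.18, SE 0.036, adjusted p = 1.12e-05).

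HSPD1, the HSP60 subunit itself, was at 1473, 1419 and 1306 CPM in control and at 1513, 1439.6 and 1469.5 CPM with tamarixetin. The groups overlapped, since control replicate 1 was higher than tamarixetin replicates 2 and 3. The log2 fold change was 0.075 (SE 0.032, adjusted p = 0.0478), a fold of 1.05, with an unadjusted 95% interval of 0.012 to 0.14 on the log2 scale. The call rested on single libraries and settings: it held in 5 of 16 alternatives, with no change of sign in any, and without control replicate 3 the change was 0.023 (adjusted p = 0.608). The call was also lost without tamarixetin replicate 1 (0.056, adjusted p = 0.190), control replicate 2 (adjusted p = 0.0670) or tamarixetin replicate 3 (adjusted p = 0.0785), and upper quartile scaling gave 0.040 (adjusted p = 0.318).

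The libraries of the groups did not overlap in 8 of the 10 members, all higher. Over all genes tested they did not overlap in 50.5%, and in 26% with tamarixetin higher.

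**Figure D2:**
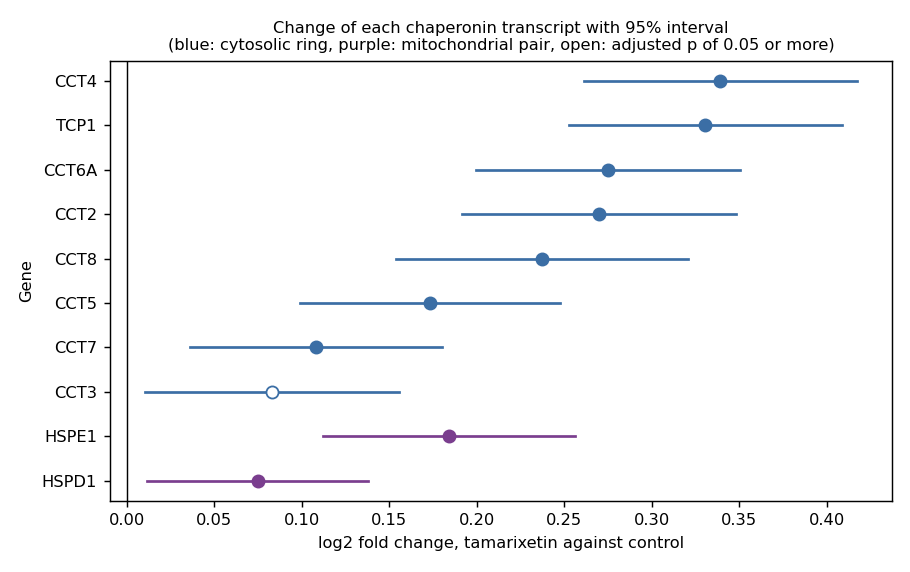
Log2 fold change of each chaperonin gene, tamarixetin against control (horizontal axis), with its unadjusted 95% interval; filled points passed the test and the open point, CCT3, did not. CCT4 and TCP1 stand highest at 0.34 and 0.33, and CCT3 and HSPD1 lowest at 0.083 and 0.075.

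The ring was compared with the mitochondrial pair within each library, as the mean log2 CPM of the 8 ring genes minus that of HSPD1 and HSPE1. This difference was -1.57, -1.56 and -1.47 in the control libraries and -1.44, -1.44 and -1.43 in the tamarixetin libraries. The pair was the more abundant per gene everywhere, and the tamarixetin libraries were nearly level while control replicate 3 stood close to them. The mean went from -1.53 ± 0.052 to -1.44 ± 0.0083 (SD, n = 3 each), a rise of 0.097 in the ring relative to the pair. No test is given for this score, since the genes were chosen with results known. The members of the pair were unequal: HSPE1, at 0.18, lay between CCT5 and CCT8 in log2 fold change, and HSPD1, at 0.075, near CCT3. Without control replicate 1, HSPD1 was at 0.11, above CCT3 (0.059) and CCT7 (0.084). HSPE1 per HSPD1 was 0.293, 0.345 and 0.362 in control and 0.341, 0.375 and 0.360 with tamarixetin, with overlap between the groups. HSPD1 and HSPE1 share 281 annotated exon bases on opposite strands, of 4245 in HSPD1 and 1977 in HSPE1. Since the strand setting is not given, reads from these bases cannot be told apart.

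Summed over its 8 genes, the ring went from 2289 ± 59.7 to 2652 ± 11.6 CPM, a ratio of 1.16, and the pair from 1865 ± 73.9 to 2002 ± 25.0 CPM, a ratio of 1.07 (SD, n = 3 each). The groups did not overlap in either sum. Together the 10 genes took up 0.410% ± 0.0073 of all counts in control and 0.470% ± 0.0027 with tamarixetin.

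The complex holds its subunits in equal number, but the ring transcripts were not equally abundant. The kit reads next to the poly(A) tail, so a count stands for about one fragment per transcript and levels are compared without dividing by length. In control libraries the order of levels was HSPD1, HSPE1, CCT3, CCT7, CCT5, CCT6A, CCT4, TCP1, CCT2 and CCT8. CCT6A and CCT4, CCT4 and TCP1, and TCP1 and CCT2 overlapped with each other in that order, and all other neighbours were apart in these 3 libraries. With tamarixetin the order was the same except that CCT4 stood just before CCT6A, and the overlapping neighbours were CCT3 with CCT7 and CCT4 with CCT6A.

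Levels within the ring moved closer together. The most abundant subunit exceeded the least abundant by 2.08-, 1.98- and 2.05-fold in the control libraries and by 1.94-, 1.76- and 1.82-fold with tamarixetin. The 2 groups did not overlap in this ratio. The SD of log2 CPM over the 8 subunits was 0.35 ± 0.016 in control and 0.28 ± 0.019 with tamarixetin (SD, n = 3 libraries each). CCT3 had 17.5% ± 0.052 of the ring's summed CPM in control and 16.003% ± 0.665 with tamarixetin, and CCT7 had 16.6% ± 0.136 and 15.4% ± 0.375. Against this, the share of CCT4 went from 11.2% ± 0.329 to 12.2% ± 0.173, and that of TCP1 from 10.5% ± 0.158 to 11.4% ± 0.124. The shares of CCT2 and CCT6A were also higher without overlap, and those of CCT5 and CCT8 overlapped between the groups. Shares add up to a fixed total, so those of the 8 genes are not independent, and they were not tested.

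**Figure D3:**
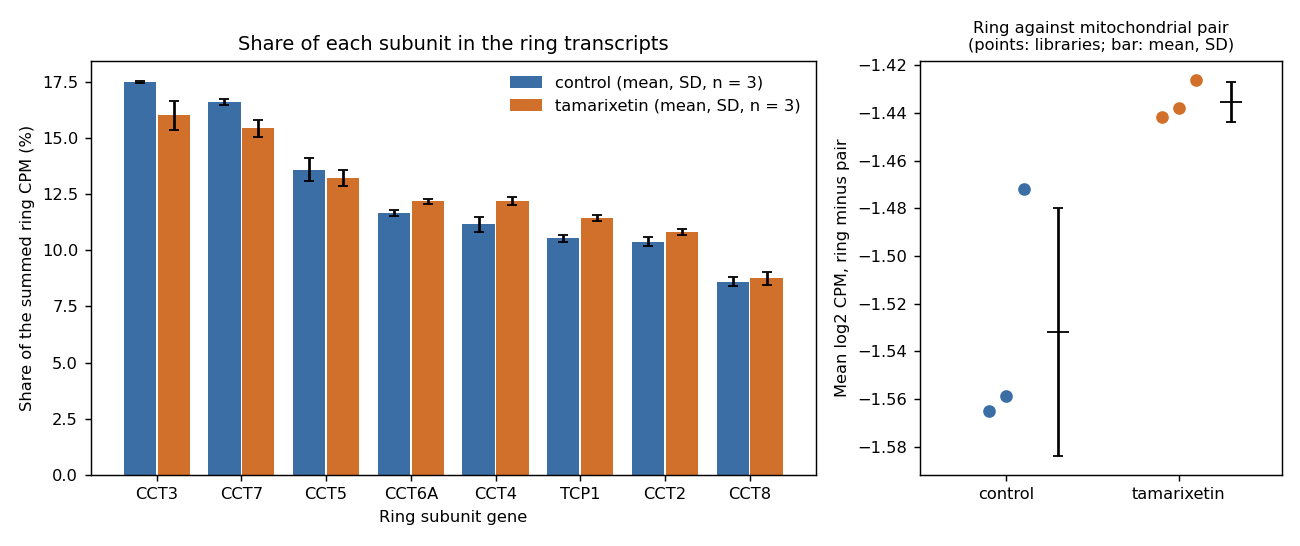
Left, share of each subunit gene in the summed ring CPM (percent, from 0; bars are means and SD, n = 3), where CCT3 and CCT7 give up share and CCT4 and TCP1 gain it. Right, mean log2 CPM of the ring minus that of HSPD1 and HSPE1 in each library (the axis does not start at 0), with the controls from -1.57 to -1.47 and the tamarixetin libraries from -1.44 to -1.43.

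Close relatives of the chaperonins were scarce. CCT6B, the testis form of the zeta subunit, had 1.62 ± 0.475 CPM in control and 1.13 ± 0.352 CPM with tamarixetin (SD, n = 3 each). CCT8L2 had 0 counts. The chaperonin-like genes of Bardet-Biedl syndrome, MKKS, BBS10 and BBS12, had log2 fold changes of 0.28, 0.044 and -0.32. None of these 4 tested genes passed (lowest adjusted p = 0.0528, MKKS), but MKKS did so without control replicate 3 (0.38, adjusted p = 0.0270) or tamarixetin replicate 3 (0.40, adjusted p = 0.0112) and when only library size was used for scaling (adjusted p = 0.0279). The pseudogenes CCT6P1 and CCT6P3 had 2 to 10 counts per library, against 3225 to 5067 for CCT6A. For the other members, HSPD1 and HSPE1 included, no pseudogene symbol (the member symbol followed by P and digits) was listed. How reads that match several places were counted is not stated here, which limits comparisons of level between genes. The readthrough gene HSPE1-MOB4 and MOB4 itself were listed at 0 counts in all libraries. The readthrough shares 192 of the 1977 exon bases of HSPE1. How reads over exons shared by several genes were counted is not stated here. These zeros therefore need not mean that the genes were silent, and HSPE1 reads over the shared bases may also be affected.

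The delivery partners of the ring moved unevenly. Prefoldin binds new actin and tubulin chains and passes them to CCT. Of its 6 subunit genes 3 rose, PFDN2 (0.36, SE 0.050), PFDN6 (0.26, SE 0.086) and PFDN4 (0.17, SE 0.042), and PFDN5 fell by 0.22 on the log2 scale (SE 0.040). PFDN1 and VBP1 were at 0.075 and 0.15 and did not pass. For comparison, 22.4% of all genes tested were higher and 21.3% lower. PFDN6 lost its call without control replicate 3 (0.22, adjusted p = 0.0646). Of 7 phosducin-like and prefoldin-like cofactors, which bind CCT or resemble prefoldin, 6 were tested and none passed with all 6 libraries and TMM scaling (the largest change was PDCL3, 0.23, adjusted p = 0.0664). TXNDC9 passed without control replicate 3 (0.34, adjusted p = 0.0143) or tamarixetin replicate 1 (0.28, adjusted p = 0.0361), and both it (adjusted p = 0.0481) and PDCL3 (adjusted p = 0.0319) passed when only library size was used for scaling. Their median was 0.020, and URI1, TXNDC9 and PDRG1 were at -0.049, 0.21 and 0.078.

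Clients of the ring were found in both directions. Of 23 substrate genes, among them actins, tubulins, G-protein beta subunits and cell cycle proteins, 11 rose and 5 fell, with a median of 0.088. Of all genes tested 22.4% were higher and 21.3% lower, so the share of clients that fell was near the background. Both cytoplasmic actins rose: ACTG1 from 4004 ± 152 to 5944 ± 131 CPM (log2 fold change 0.57, SE 0.027) and ACTB from 909 ± 34.6 to 1130.3 ± 30.5 CPM (0.32, SE 0.032). The most abundant tubulins fell, TUBB from 2964 ± 66.5 to 2325 ± 43.3 CPM (-0.35, SE 0.028) and TUBA1B from 1899 ± 70.9 to 1551 ± 20.6 CPM (-0.29, SE 0.030), while the scarcer TUBB6 rose from 45.5 ± 3.15 to 92.5 ± 0.433 CPM (1.03, SE 0.062). The other substrate genes that fell were HDAC3, a histone deacetylase (-0.25), FZR1, an activator of the anaphase-promoting complex (-0.41), and CCNE1, cyclin E1 (-0.32). The groups of FZR1 overlapped. Values of single actins and tubulins are uncertain, because near-identical copies can share reads. Of 6 tubulin folding cofactors, which take tubulin from CCT, TBCE rose (0.36, SE 0.087) and TBCA (-0.11), TBCB (-0.16) and TBCD (-0.16) fell. The call of TBCA was lost without tamarixetin replicate 3 (adjusted p = 0.0671) or when only library size was used for scaling (adjusted p = 0.0517), and that of TBCD without any one of 4 libraries, at adjusted p of 0.0550 to 0.186.

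Other cytosolic chaperones had a larger median change than the ring, a difference that was not tested. Of 13 HSP70 and HSP90 genes with their co-chaperones and factors, 11 rose and none fell, with a median of 0.36. The shares over all genes tested, for this list and the ER list below, were 22.4% higher and 21.3% lower. HSPA1A, HSPH1, HSPA8 and HSPA1B were the 4 with the smallest p, at 1.05, 0.91, 0.63 and 0.80. The separate values of HSPA1A and HSPA1B are uncertain, because these near-identical copies can share reads. In contrast to these 4 genes, the abundant HSP90AA1 (0.071) and HSP90AB1 (0.078) had changes as small as that of HSPD1. HSP90AA1 lost its call without control replicate 1 (0.042, adjusted p = 0.250) and without tamarixetin replicate 1 (adjusted p = 0.151) or 2 (adjusted p = 0.0639), and with the replicate block (adjusted p = 0.0508); both genes lost theirs under upper quartile scaling (adjusted p = 0.302 and 0.161). HSF1, the heat shock factor, rose by 0.32 (SE 0.068), and HSF2 was at -0.12 and did not pass. The list of 11 chaperones of the ER lumen went the other way, with 8 lower, 3 higher and a median of -0.27. CALR (-0.58), PDIA4 (-0.51), HSP90B1 (-0.42) and HSPA5 (-0.32), which fold or retain secretory proteins, were among those that fell. DNAJB11 (0.31), HYOU1 (0.11) and CANX (0.080) rose, but of these 3 only DNAJB11 was called without control replicate 2 or tamarixetin replicate 1 or 3, under upper quartile scaling, with no filter or with the 5 CPM filter. CANX also lost its call without control replicate 1 (adjusted p = 0.0583) and HYOU1 without tamarixetin replicate 2 (adjusted p = 0.111).

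In mitochondria, most genes of the HSP70 system that acts before HSP60 rose. HSPA9, the matrix HSP70 that pulls in and folds imported chains, went from 173 ± 3.66 to 217 ± 2.12 CPM (log2 fold change 0.33, SE 0.042, adjusted p = 1.26e-10). Its nucleotide exchange factor GRPEL1 (0.36, SE 0.049) and its membrane anchor TIMM44 (0.30, SE 0.073) rose too. Of the 8 genes listed 5 rose and 1, DNAJC19, fell by 0.27 on the log2 scale, with a median of 0.25. Among all genes tested 22.4% were higher and 21.3% lower. The genes that rose include TRAP1 (0.19), which is a mitochondrial HSP90 and was listed with this system. HSCB (-0.32, adjusted p = 0.0542) and DNAJA3 (-0.052) did not pass. That HSPA9 rose more than HSPD1 is a comparison of 2 fitted values, 0.33 and 0.075, and was not tested.

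Other mitochondrial folding and import genes were called in either direction at shares somewhat under that of all genes. By direction, 22.4% of all genes tested were higher and 21.3% lower, whereas the protease and import lists each had more genes higher than lower. Of 11 quality-control proteases 3 rose, HTRA2 (0.36), CLPX (0.25) and LONP1 (0.21), and SPG7 fell by 0.22, so 36.4% were called. The groups of CLPX overlapped, and its call was lost without control replicate 2 (adjusted p = 0.0804) or tamarixetin replicate 2 (adjusted p = 0.0962); when only library size was used for scaling, 5 proteases were higher. Of 18 import genes 6 rose, TIMM23 (0.36), TIMM9 (0.32), TIMM50 (0.25), TIMM21 (0.24), TIMM17A (0.21) and TOMM5 (0.13), and TOMM7 fell by 0.17, so 38.9% were called, against 43.7% of all genes. TIMM21 lost its call without control replicate 1 (adjusted p = 0.118) or 3 (adjusted p = 0.0964) or tamarixetin replicate 1 (adjusted p = 0.104), and TOMM5 under upper quartile scaling (adjusted p = 0.0618). The median was 0.11 for the proteases and 0.057 for import. Among 4 transcription factors tied to mitochondrial stress, ATF4 (0.33) and DDIT3 (0.38) rose, and CEBPB (0.12) and ATF5 (-0.13) did not pass. CEBPB passed without tamarixetin replicate 2 (0.15, adjusted p = 0.0371) and when only library size was used for scaling (adjusted p = 0.0127). DDIT3, at about 10 CPM in control, lost its call without control replicate 1 (adjusted p = 0.0561) or 3 (log2 fold change 0.28), and without tamarixetin replicate 2 (adjusted p = 0.117) or 3 (adjusted p = 0.0967).

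**Figure D4:**
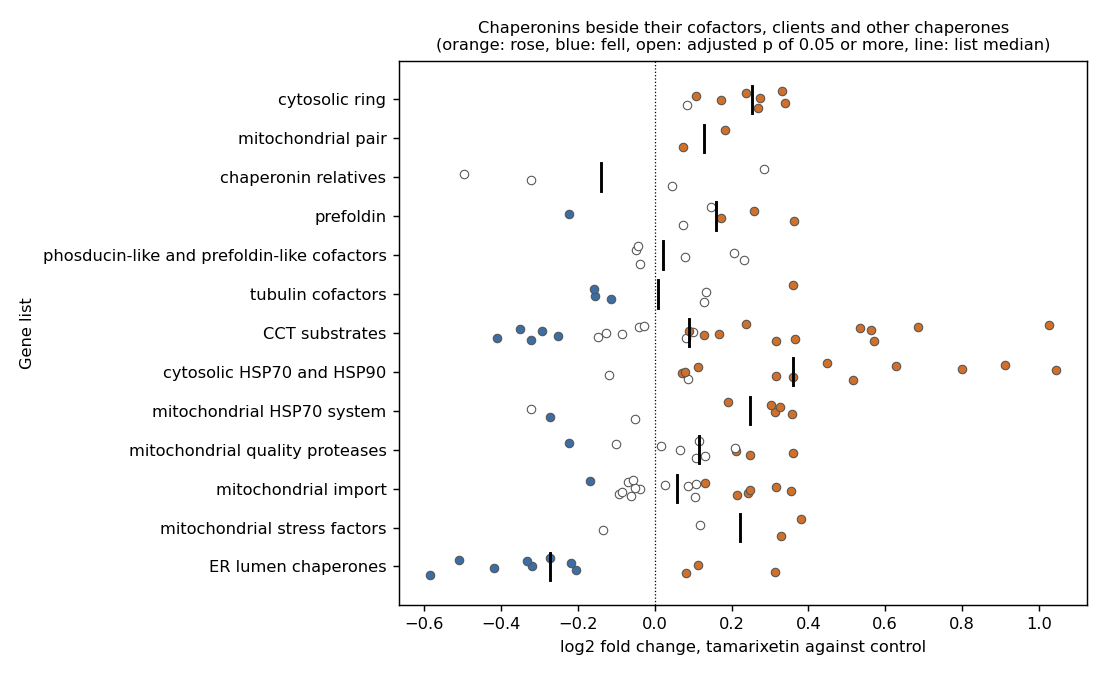
Log2 fold change (horizontal axis) of every tested gene of the ring, the pair and 11 lists of partners, clients and other chaperones; orange points rose, blue points fell, open points did not pass, and the line is the list median. The ring lies to the right of 0 as a group (median 0.25), cytosolic HSP70 and HSP90 reach further right (0.36), and the chaperones of the ER lumen lie mostly to the left (-0.27).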

How the data were processed

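RNA of 3 control and 3 tamarixetin cultures was made into QuantSeq 3′ (forward) libraries, per the labels' protocols. Each library has 1 deposited table of raw, unscaled counts by gene symbol. The build was GRCh38 and the tools were STAR 2.7.10b, featureCounts 2.0.6 and fastp 0.23.1, per the submitters' processing notes. Which annotation release and strand setting were used, and whether molecular identifiers were, is not given in the sources used here. No row lacked a gene name. Within groups the chi-square between 2 libraries was 2.33 to 3.40 for each gene on average (6 pairs), so none was treated as a copy.

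The test on the counts was that of edgeR 4.0.16, run in R 4.3.3 (filterByExpr, TMM factors, quasi-likelihood test, group as the only term), with Benjamini-Hochberg adjustment over all genes tested and a threshold of 0.05. The SE is the log2 fold change over the square root of F. CPM are counts over TMM-adjusted library sizes; log2 CPM has a prior count of 2. The code of the test was checked on simulated counts with the same spread for every gene, unlike real data. How well it recovers changes as small as those of HSPD1, CCT3 and CCT7 is not given here. Coordinates and start windows are RefSeq's (GRCh38.p14), exons and strands GENCODE 29's.

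The members and lists were chosen with earlier results of these data known. All 10 members are named; of each list other than the markers and mitochondrial genes, the 4 genes with the smallest p and, where 3 or fewer were called against its majority, those; further genes were chosen after their values were seen. Alternatives covered scaling, filter, block, left-out libraries, DESeq2 1.42.0, limma-voom (limma 3.58.1) and stricter thresholds. Intervals cover these libraries only.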

Additional observations from a re-analysis of the deposited data

How the results depend on the processing

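All 10 members kept a positive sign under all 16 alternatives. The count of members changed was 9, and ran from 7 to 10 with 1 library left out; it was 8 with DESeq2, DESeq2 size factors, no filter or at least 5 CPM in 3 libraries, 7 with upper quartile scaling or an adjusted p of 0.01, and 10 in limma-voom or with scaling by library size alone. With a minimum fold of 1.2 in the test only CCT4 was called (1 member, higher), and 2560 genes in all, 1319 higher and 1241 lower. The replicate number as a block left 9 members and 5735 genes called (5771 without it) and, of the members and 74 other named genes, changed the call of HSP90AA1 alone (adjusted p = 0.0508); same-numbered libraries did not deviate together (correlations -0.041 to -0.0089), so the numbers were not taken as pairs. The ring minus pair difference of 0.097 ran from 0.080 to 0.127 with 1 library left out. Scaling moved the median of all genes by at most 0.035 in either direction. The sign turned for URI1 without control replicate 1, BBS10 without control replicate 2 and PDRG1 without control replicate 3; with 1 library left out their log2 fold changes ran from -0.13 to 0.040, from -0.031 to 0.087 and from -0.0045 to 0.13. The median of the chaperonin relatives was 0.28 with at least 5 CPM in 3 libraries, which leaves MKKS alone. That of the phosducin-like and prefoldin-like cofactors was -0.015 under upper quartile scaling and ran from -0.020 to 0.072 with 1 library left out, negative without control replicate 3. The median of the tubulin cofactors (0.0073) was -0.028 under upper quartile scaling and -7.16e-04 under the 5 CPM filter; with 1 library left out it ran from -0.046 to 0.028, negative without control replicate 2 (-0.0075) or 3 or tamarixetin replicate 1 or 2. The causes were not tested.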

Other observations

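The genes whose profile over the 6 libraries was most like that of the ring were sought among 3697 other genes averaging 50 CPM or more, by the root mean square difference of centred log2 CPM. The nearest were CLTA, a clathrin light chain (0.00996), the protease ADAM17 (0.0133), the lysosomal protease CTSB (0.0142), the mitochondrial ribosomal protein MRPL9 (0.0152) and HSD17B11 (0.0160), with log2 fold changes of 0.23 to 0.25. Single ring genes lay further from the mean profile of their own ring, at 0.0273 (CCT6A) to 0.0811 (CCT3). The nearest genes were picked from 3697 for the smallest distance and the ring genes were not. The contrast therefore does not show that ring genes follow their ring less closely than other genes do. The nearest to the mitochondrial pair were TFAM, which packages mitochondrial DNA (0.0127; log2 fold change 0.14), TMEM230 (0.0145), the microtubule end protein MAPRE1 (0.0146), DAAM1 (0.0163; log2 fold change 0.10, which did not pass) and the import subunit TOMM5 (0.0191). TMEM230 lost its call without control replicate 1 or 3 or tamarixetin replicate 2 or 3 (adjusted p of 0.0524 to 0.0665), and MAPRE1 without control replicate 3 or tamarixetin replicate 1 (adjusted p of 0.0734 and 0.0652). These distances describe 6 libraries and carry no test.

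Of the genes next to a member, MRPL18, a mitochondrial ribosomal protein gene on the other strand 210 bases from TCP1, rose by 0.24 (SE 0.050). On either side of CCT6A, SUMF2 rose by 0.34 (SE 0.087) and PSPH, an enzyme of serine synthesis, fell by 0.39 on the log2 scale (SE 0.061). Farther off, RHBG beside CCT3 (-1.11), CMBL beside CCT5 (-0.26) and SOD2-OT1 beside TCP1 (-1.87, 130 counts in all) fell. COQ10B beside HSPD1 rose by 0.46. How these more distant neighbours fared under the alternatives is not given. TSACC, ATPSCKMT, PRADC1, FBXO41 and USP16, also nearest to members, did not pass. ACAT2 and COMMD1 are described above.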
